A study of Oryza brachyantha and Oryza sativa Japonica Group and Oryza glaberrima with 38 samples.

Results

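H3K27me2 and H3K4me2 were compared in Oryza brachyantha, a small-genome wild rice, as lists of intervals enriched in ChIP-seq, in which DNA bound to a modified histone is pulled down with an antibody and sequenced. The series holds 38 samples of 6 grasses, of which 21 have a peak list, and the comparison took the 2 lists of these marks from batch 1 of the tillering O. brachyantha plants. Both libraries came from above-ground tissue of green-house plants 60 days after germination, with 8 g of tissue fixed in 3% formaldehyde and chromatin sheared to 300 to 500 bp. The H3K27me2 library used a Millipore antibody and had an input control, while the H3K4me2 library used an Abcam antibody and had a histone H3 control. Each mark had 1 library, so no test between the marks was possible, and every value describes these libraries. A difference between marks cannot be told apart from a difference between controls, antibodies or read depths, and the depth is unknown because the lists carry no read totals. Whether both libraries came from the same plants is not stated, and whole above-ground tissue mixes the cell types of the shoot.

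On chromosomes 1 to 12 the lists held 33412 H3K27me2 intervals of 33456 lines and 41187 H3K4me2 intervals of 41201 lines, out of 532158 peak lines in the whole series. The lines left out lay on unplaced contigs. The 6 further lists of the same stage served to describe where the intervals lie. These were H3K4me3 of batch 1 (H3 control) and batch 2 (input control), H3K9Ac of batch 1, H3K56Ac of batch 2 and H3K9me2 of both batches. The same mark in H3K4me3 batch 1 and batch 2 gave a scale for how far lists move without a change of mark, since those libraries also differ in control.

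Dimethylation of histone H3 lysine 27 is an intermediate of the methylation made by Polycomb-type enzymes and belongs, in plants, with facultative heterochromatin, in which genes are kept silent in some cells or stages. Dimethylation of lysine 4 lies over genes, and in plants it also covers genes with little transcription. H3K4me3 and acetylation of lysines 9 and 56 mark the starts of active genes, and H3K9me2 marks the constitutive heterochromatin of transposons and pericentromeres.

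H3K27me2 formed shorter and weaker intervals than H3K4me2. The median width was 312 bp for H3K27me2 and 680 bp for H3K4me2, a ratio of 0.459. The median per chromosome ran from 294 to 326 bp for H3K27me2 and from 657 to 695.5 bp for H3K4me2, so the ranges over the 12 chromosomes did not overlap. The middle 50% of widths ran from 198 to 597 bp for H3K27me2 and from 358 to 1084 bp for H3K4me2. Both lists were of narrow peaks, and neither held long domains like those in the H3K9me2 lists. The median H3K9me2 width in batch 1 was 1174 bp and the longest interval reached 261544 bp. The lowest −log10 q was 1.01 in both H3K9me2 lists and 1.31 in the H3K27me2 and H3K4me2 lists, so the calling may differ. Its part in these widths was not tested. The longest interval was 6611 bp for H3K27me2 and 7149 bp for H3K4me2.

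Many H3K27me2 intervals were shorter than the sheared chromatin fragments. Intervals under 200 bp made up 25.3% of the H3K27me2 list (8466) and 6.35% of the H3K4me2 list (2616). At the other end, intervals of at least 1 kb made up 11.1% of the H3K27me2 list (3724) and 29.4% of the H3K4me2 list (12119). These wide intervals carried 34.1% of the H3K27me2 bp and 55.2% of the H3K4me2 bp. The peak scores, which are the authors' own, were also lower for H3K27me2. Its median pileup was 32 reads against 49 for H3K4me2, its median fold enrichment over the control was 2.83 against 3.47, and its median −log10 q was 5.65 against 12.4. The lowest −log10 q was 1.31 in both lists.

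**Figure D1:**
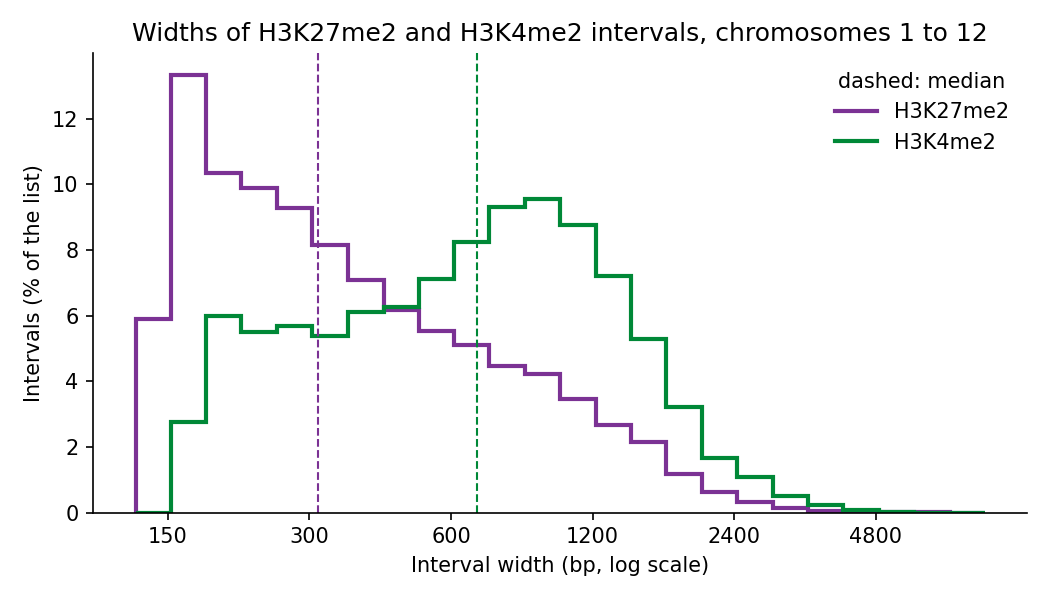
Widths of the 33412 H3K27me2 and 41187 H3K4me2 intervals, with width in bp on a log axis and the percent of each list in a width class on the vertical axis. H3K27me2 piles up near its shortest widths with a median of 312 bp, and H3K4me2 has its highest class above its median of 680 bp.

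H3K27me2 took up less of the chromosomes than H3K4me2. It covered 16.1 Mb, or 6.22% of the 258.9 Mb of chromosome length, against 33.2 Mb or 12.8% for H3K4me2. Per chromosome the covered share ran from 5.34% to 6.77% for H3K27me2 and from 10.3% to 14.5% for H3K4me2, and again the ranges did not overlap. Intervals of a list lay at a median gap of 2518 bp from the next for H3K27me2 and 3055 bp for H3K4me2. Joining neighbours across gaps of up to 300 bp left 29233 H3K27me2 and 37593 H3K4me2 stretches, with median widths of 353 bp for H3K27me2 and 774 bp for H3K4me2, a ratio of 0.456.

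The marks overlapped, by a larger share of H3K27me2 than of H3K4me2. H3K4me2 covers 12.8% of chromosome length and H3K27me2 6.22%, so the touching shares have unlike backgrounds. The part of this, and of interval width, in the shares was not tested. Of the H3K27me2 intervals, 16592 or 49.7% touched an H3K4me2 interval by at least 1 bp (95% Wilson interval 49.1% to 50.2%, counting error only). Of the H3K4me2 intervals, 14283 or 34.7% touched an H3K27me2 interval. The same 16700 overlapping pairs underlie both shares. Among these, 2101 H3K4me2 intervals touched 2 or more H3K27me2 intervals, and 100 H3K27me2 intervals touched 2 or more H3K4me2 intervals. Over chromosomes these shares ran from 43.6% (chromosome 12) to 57.5% (chromosome 3) for H3K27me2 and from 29.8% (chromosome 3) to 41.4% (chromosome 11) for H3K4me2. For scale, 92.4% of H3K4me3 batch 1 intervals touched a batch 2 interval and 88.2% of batch 2 intervals touched a batch 1 interval. The share of H3K27me2 that met H3K4me2 lay well below these, but the H3K4me3 lists were stronger. Their median −log10 q was 53.3 in batch 1 and 18.6 in batch 2, against 5.65 for H3K27me2. The part of strength in this difference was not tested.

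Where an H3K27me2 interval met H3K4me2, it was usually covered by it. H3K4me2 lay over at least 50% of the width of 47.8% of all H3K27me2 intervals (15987) and over the whole of 32.2% (10758). Only 605 H3K27me2 intervals were touched but less than 50% covered. In the other direction H3K27me2 covered at least 50% of the width of 24.8% of H3K4me2 intervals (10231) and the whole of 2.43% (999), and 4052 were touched but less than 50% covered. In bp, 63.2% of H3K27me2 lay inside H3K4me2, with a range of 57.9% to 70.0% over chromosomes. This stands beside the 12.8% of chromosome length that H3K4me2 covers. Of the H3K4me2 bp, 30.6% lay inside H3K27me2, with a range of 25.8% to 35.9%, beside the 6.22% that H3K27me2 covers. The shared bp are the same in both directions, so these shares differ only through the sizes of the lists. The shared sequence came to 10.2 Mb in 16700 segments with a median of 473 bp, next to 5.93 Mb of H3K27me2 without H3K4me2 and 23.0 Mb of H3K4me2 without H3K27me2.

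Overlap went with peak strength in both lists. When each list was split into 4 quartile classes by the authors' −log10 q, the share of H3K27me2 intervals that touched H3K4me2 was 24.3%, 31.3%, 52.4% and 90.7% from the lowest to the highest class. For H3K4me2 intervals touching H3K27me2 the same series was 5.26%, 11.6%, 36.3% and 85.5%. In the highest quartile the range over chromosomes was 87.5% to 94.8% for H3K27me2 and 82.8% to 89.0% for H3K4me2, so most of the strongest intervals of either mark touched the other mark on every chromosome. The strong intervals were also the wide ones, with a median of 861 bp in the highest H3K27me2 quartile against 215 bp in the lowest. The same medians were 1139 and 277 bp for H3K4me2. By width alone, 90.7% of H3K27me2 intervals of 1 to 2 kb and 24.1% of those under 200 bp touched H3K4me2, and 53.1% and 5.54% of the H3K4me2 intervals of these widths touched H3K27me2. Strength and width were not separated here.

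**Figure D2:**
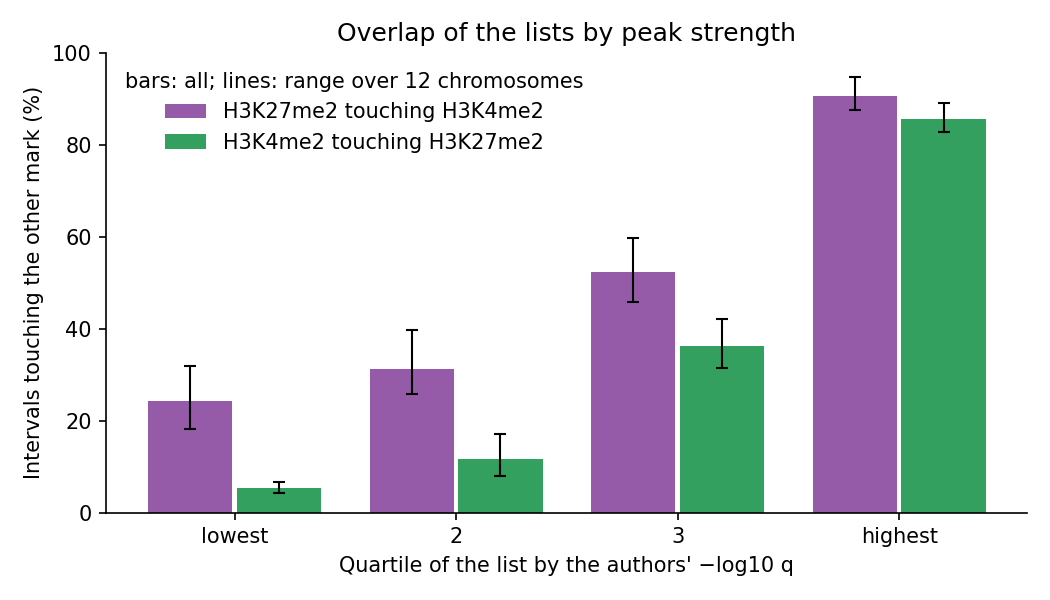
Percent of intervals that touch the other mark, in quartile classes of each list by the authors' −log10 q, with H3K27me2 left and H3K4me2 right in each pair, bars for all chromosomes and lines for the range over the 12 chromosomes. The bars climb to 90.7% for H3K27me2 and 85.5% for H3K4me2 in the highest quartile.

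Strength was also related within shared intervals. Of the intervals that touched exactly 1 interval of the other list, in both directions, there were 11989 pairs. When the H3K27me2 interval was in its highest quartile, the H3K4me2 partner was in its own highest quartile in 80.9% of 6066 pairs. This share was 26.8% of 1326 pairs when the H3K27me2 interval was in its lowest quartile. Over the 11989 pairs the Spearman correlation was 0.49 for fold enrichment and 0.56 for width. It is a description, since both members of a pair share a position in the genome.

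The H3K27me2 intervals on H3K4me2 and those off it differed in the other marks that touched them. An H3K4me3 interval of batch 1 touched 59.6% of the H3K27me2 intervals with H3K4me2 (9881 of 16592) and 0.511% of those without (86 of 16820). H3K9Ac touched 44.1% with and 1.08% without H3K4me2, and H3K56Ac touched 56.5% with and 1.60% without. H3K9me2 of batch 1 was the reverse, at 0.832% of the intervals with H3K4me2 (138) and 26.9% of those without (4523). The second batches gave like values, with H3K4me3 at 62.1% and 0.535% and H3K9me2 at 1.27% and 35.5%. Most intervals without H3K4me2 thus touched no H3K9me2 in each batch. In bp, H3K9me2 lay over 28.7% (batch 1) and 39.5% (batch 2) of the intervals without H3K4me2, beside 9.18% and 12.5% of chromosome length. Over all H3K27me2 intervals these shares were 9.63% and 13.3%, close to the shares of chromosome length. As 96.9% of the batch 1 H3K4me3 intervals touched H3K4me2, the low H3K4me3 share without H3K4me2 follows largely from how the intervals were divided. Likewise, H3K9me2 of batch 1 touched only 0.833% of all H3K4me2 intervals. The low H3K9me2 share with H3K4me2 thus also follows largely from the division. The median width was 510 bp with and 231 bp without H3K4me2, and the median −log10 q was 9.82 with and 4.16 without.

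The differences in H3K9me2 and H3K4me3 were present in all 4 quartile classes of −log10 q. The division by H3K4me2 acts in each class, so their presence there is no separate evidence. H3K9me2 touched 0.449% to 1.34% of the H3K27me2 intervals with H3K4me2 and 24.9% to 40.6% of those without. In the highest quartile of H3K27me2 by −log10 q, H3K9me2 touched 0.449% of the 7575 intervals with H3K4me2 and 40.6% of the 778 without. In the lowest quartile it touched 1.28% of 2027 intervals with H3K4me2 and 24.9% of 6326 without. H3K4me3 touched 73.0% of the highest quartile with H3K4me2 and 0.514% of the same quartile without.

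For H3K4me2 the values with and without H3K27me2 were close over the whole list but not at a given strength. H3K4me3 of batch 1 touched 63.8% of the H3K4me2 intervals with H3K27me2 and 57.2% of those without. H3K9Ac touched 50.1% with and 57.2% without H3K27me2, and H3K9me2 touched 0.938% with and 0.777% without. Within the 4 quartile classes of −log10 q the direction for H3K4me3 was the other way. It touched 12.7%, 34.1%, 59.3% and 72.8% of the H3K4me2 intervals with H3K27me2, from the lowest to the highest class, and 25.8%, 69.5%, 82.4% and 76.3% of those without. H3K9me2 touched 12.6% with and 1.57% without H3K27me2 in the lowest class, and 0.261% with and 0.336% without in the highest. The intervals with H3K27me2 are mostly of the highest class (8809 of 14283) and those without mostly of the lower ones, with 1488 of 26904 in the highest. Counted in bp, H3K4me3 lay over 49.0% of the sequence with both marks, 1.15% of H3K27me2 without H3K4me2 and 48.2% of H3K4me2 without H3K27me2, beside 8.26% of all chromosome length. Intervals of H3K4me2 with H3K27me2 were wider, at a median of 962 bp against 515 bp without.

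Most intervals of the active marks touched H3K4me2, and a minority touched H3K27me2. Of the 24282 H3K4me3 intervals of batch 1, 39.2% touched H3K27me2 and 96.9% touched H3K4me2. Only 29 touched H3K27me2 and not H3K4me2. H3K27me2 touched 26.4% of the H3K9Ac and 31.3% of the H3K56Ac intervals, and H3K4me2 touched 79.4% and 81.1% of them, while 20.1% of H3K9Ac and 18.1% of H3K56Ac intervals touched neither. The H3K4me3 intervals with H3K27me2 were narrower, with a median of 619 bp against 920 bp without. In batch 2 these medians were 498 and 902 bp. Of the 6270 H3K9me2 intervals of batch 1, 32.2% touched H3K27me2 and 3.06% touched H3K4me2. Those with H3K27me2 were the longer ones, at 3513 bp against 789.5 bp without, and a longer interval has more length to touch. In bp, 6.53% of H3K9me2 of batch 1 lay under H3K27me2, close to the 6.22% of chromosome length that H3K27me2 covers. For H3K4me2 this share was 0.456%, beside 12.8% of chromosome length.

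At shared intervals the edges of H3K27me2 lay inside those of H3K4me2. Over the 23978 edges of the 11989 pairs, the H3K27me2 edge was displaced inward by a median of 69 bp, with the middle 50% from 4 to 208 bp and chromosome medians from 56.5 to 79 bp (SD 6.34 bp over 12 chromosomes). Between H3K4me3 batch 1 and batch 2, with 20630 pairs, the median was −7 bp, with chromosome medians from −9.5 to −3 bp. The inward shift of H3K27me2 was larger on every chromosome than the offset between these H3K4me3 lists. It was smaller than the offset between the H3K9me2 lists, where batch 1 edges lay a median of 385.5 bp inside those of batch 2 (chromosome medians 274.5 to 470.5 bp) at 2094 pairs of wider intervals, with median widths of 1360 and 2798 bp. Offsets of 69 bp or more therefore also occur between lists of 1 mark. The shift of H3K27me2 was smaller than the 300 to 500 bp fragment size.

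The whole H3K27me2 interval lay within its H3K4me2 partner in 60.6% of the pairs, lay around it in 7.46%, and was staggered against it in 31.9%. The paired intervals had median widths of 583 bp for H3K27me2 and 893 bp for H3K4me2, and H3K27me2 was the shorter in 80.5% of pairs. Their summits, the points of highest signal, were a median of 91 bp apart, close to the 93 bp between H3K4me3 batches. The inward shift was 173 bp in pairs with H3K27me2 of the lowest quartile of −log10 q and 43 bp in pairs with the highest, so strong H3K27me2 intervals came nearest to the width of their partner. With 50% reciprocal overlap required, the shift was 44 bp.

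**Figure D3:**
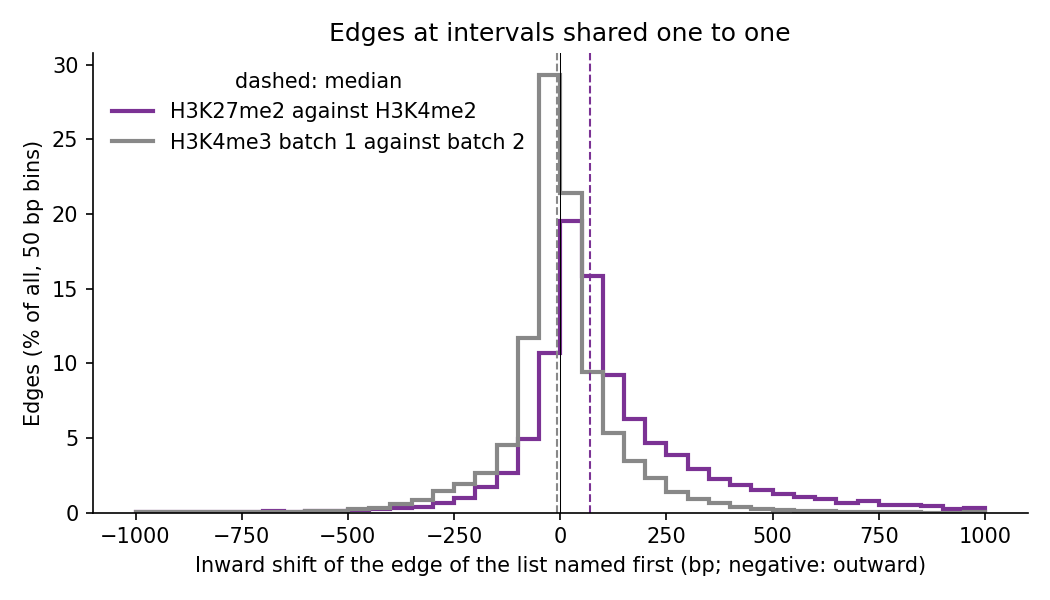
Inward shift of interval edges at intervals shared one to one, in bp on the horizontal axis (negative values are outward) and percent of edges per 50 bp class on the vertical axis, for H3K27me2 against H3K4me2 and for H3K4me3 batch 1 against batch 2. The H3K27me2 curve leans to positive values with a median of 69 bp, and the H3K4me3 curve is centred at −7 bp.

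The shift was unequal between the sides of an interval. In 3244 pairs the summit of a single H3K4me3 interval of batch 1 lay in the outer 33.3% of the H3K4me2 interval, which sets a side. The H3K27me2 edge was inward by a median of 65 bp on the H3K4me3 side and by 132 bp on the other side. The H3K4me3 side had the smaller shift in 61.2% of pairs and the larger in 38.5%. With H3K4me3 of batch 2 the medians were 62.5 and 106.5 bp over 3430 pairs. The summits of both marks leaned to the H3K4me3 side to a like degree. With batch 1, the H3K27me2 summit lay in the 33.3% nearest that side in 44.76% of pairs, and the H3K4me2 summit in 46.58%. With batch 2 these shares were 41.98% and 40.76%. The part of summit position in the unequal shift was not tested. Against H3K4me3 itself, H3K27me2 reached slightly outward, with median inward shifts of −24 bp for batch 1 and −33 bp for batch 2.

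Averaged over chromosomes, the coverage of H3K27me2 varied less with position than that of H3K4me2. With each chromosome divided into 10 bins of equal length, the mean coverage of 100 kb windows was between 5.56% and 7.12% for H3K27me2, a ratio of 1.28. For H3K4me2 it was between 6.98% in bin 4 and 19.3% in the last, a ratio of 2.77. With the 50% of intervals of highest −log10 q these ratios were 1.44 and 2.81. Single chromosomes were not flat, with H3K27me2 between 1.61% and 9.14% in the first bin. From window to window H3K27me2 varied at least as much as H3K4me2, with coefficients of variation of 0.571 and 0.505. Divided by H3K4me2, the averaged H3K27me2 profile held opposite trends. The sequence with both marks was lowest in bin 4 (2.33%) and highest in the last (5.03%). H3K27me2 without H3K4me2 was highest in bin 4 (3.36%) and lowest in bin 9 (1.18%). As H3K4me2 itself was lowest in bin 4 and highest in the last, these trends follow largely from the division. Protein-coding genes took up 24.7% of the windows in bin 4 and 47.6% in the last.

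**Figure D4:**
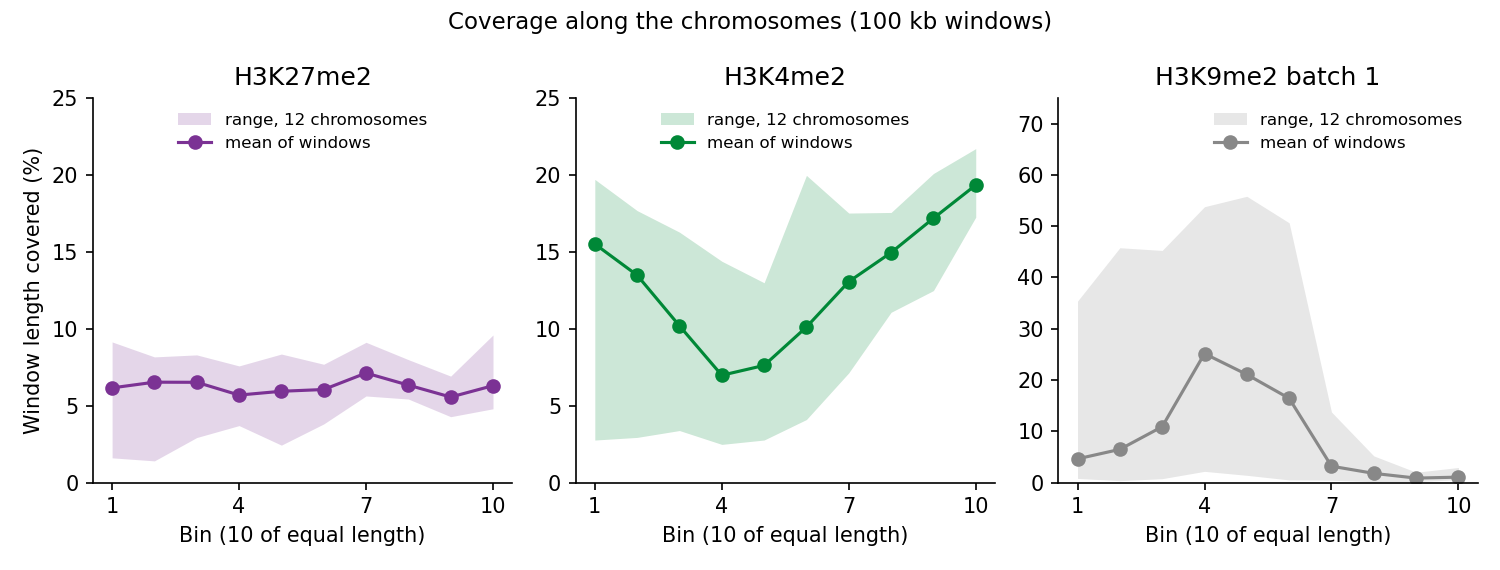
Mean percent of 100 kb windows covered by H3K27me2, H3K4me2 and H3K9me2 batch 1 in each of 10 equal bins of chromosome length, with the shaded range over the 12 chromosomes; the H3K9me2 panel has its own vertical scale. The mean of H3K27me2 stays between 5.56% and 7.12%, and H3K4me2 has its lowest value, 6.98%, in bin 4.

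H3K27me2 differed less than H3K4me2 between windows rich and poor in H3K9me2. In the 138 windows with at least 50% H3K9me2 (batch 1) coverage, H3K27me2 averaged 2.66%, against 6.28% in the 1314 windows with under 1%, a ratio of 0.424. H3K4me2 averaged 1.46% in the rich windows and 16.2% in the poor ones, a ratio of 0.0898. With the 50% of intervals of highest −log10 q the ratios were 0.268 for H3K27me2 and 0.0725 for H3K4me2. H3K27me2 covered more than H3K4me2 in 100 of the 138 rich windows and in 38 of the 1314 poor ones. In windows with 5% to 20% H3K9me2 the H3K27me2 mean was 7.26%, above both ends of the range, and H3K4me2 was at 9.93%. The part of H3K27me2 outside H3K4me2 was 81.6% in the rich windows and 24.8% in the poor ones. As H3K4me2 covers little of the rich windows, this difference also follows largely from the division by H3K4me2.

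Over all 2583 windows the Spearman correlation of H3K27me2 with H3K4me2 coverage was 0.27, and by chromosome it ran from 0.06 to 0.66. Using the 50% of intervals of highest −log10 q gave 0.54, and windows of 500 kb and 1 Mb gave 0.19 and 0.12. H3K4me2 coverage followed the share of the window in protein-coding genes (0.69) and H3K27me2 did not (−0.03). Windows share library and gene density, so these are descriptions. The window with most H3K27me2 was chromosome 7, 4800001 to 4900000 (assembly RS2), where H3K27me2 covered 23.3%, H3K4me2 7.23% and H3K9me2 30.7%. The window with most H3K4me2 was chromosome 10, 11400001 to 11500000, with 16.4% H3K27me2, 36.1% H3K4me2 and no H3K9me2.

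Genes were taken from the RefSeq annotation of the same assembly, which gives gene ends and biotypes for 26302 genes on chromosomes 1 to 12 but no strand and no product names. Protein-coding genes took up 35.2% of chromosome length, and 56.6% of H3K27me2 bp and 80.8% of H3K4me2 bp lay in them. The H3K27me2 intervals with H3K4me2 had 74.2% of their bp in genes and those without had 19.2%, under the share of chromosome length. Beyond 1 kb of any protein-coding gene lay the summits of 20.9% of the H3K27me2 intervals with H3K4me2 and 72.9% of those without, beside 50.3% of chromosome length.

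A gene was counted as carrying a mark where intervals covered at least 50% of its body. This held for 3588 protein-coding genes for H3K27me2 (15.4% of 23230) and for 7985 for H3K4me2 (34.4%). Over all 26302 annotated genes the shares were 14.6% for H3K27me2 and 32.5% for H3K4me2. Most of these genes are the protein-coding genes themselves, so the closeness of the shares is no result. Nearly all H3K27me2 genes were H3K4me2 genes. Both marks were on 3463 genes, which is 96.5% of the H3K27me2 genes and 43.4% of the H3K4me2 genes. The 34.4% over all protein-coding genes is a low background for the 96.5%, because the threshold favours short genes for both marks. H3K4me2 genes were 77.7% of genes under 1000 bp, 73.7% of those of 1000 to 2000 bp and 32.1% of those of 2000 to 4000 bp. For H3K27me2 these shares were 43.1%, 39.5% and 10.5%. The part of gene length in the 96.5% was not tested. H3K27me2 without H3K4me2 at this threshold was on 125 genes, and 244 genes were touched by H3K27me2 with no bp of H3K4me2.

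The genes with both marks were short. Their median length was 1456 bp, against 2733 bp for H3K27me2 only, 1996 bp for H3K4me2 only and 4177 bp for genes with neither. A threshold on the share of the body favours short genes, and 417 H3K27me2 and 1628 H3K4me2 intervals were 2 kb or longer. The rate was 43.1% for H3K27me2 and 77.7% for H3K4me2 in genes under 1 kb, and 1.46% and 7.45% in genes of 4 to 8 kb. Counted as any contact the dependence on length was smaller for H3K27me2, at 59.7% of genes under 1 kb, 62.4% of those of 1 to 2 kb and 31.3% of those of 4 to 8 kb. H3K4me2 touched 85.9%, 90.4% and 96.7% of the genes in these classes.

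Genes with both marks and genes with H3K4me2 only were closer in H3K4me3 than in acetylation. H3K4me3 of batch 1 touched 78.1% of genes with both marks and 83.0% of those with H3K4me2 only. H3K9Ac touched 48.0% of genes with both marks and 71.0% of those with H3K4me2 only, and H3K56Ac 63.4% and 79.6%. Over all protein-coding genes the shares were 82.1% for H3K4me3, 74.3% for H3K9Ac and 80.5% for H3K56Ac. The lengths of these classes differ, and their part in these shares was not tested. In the 244 genes with H3K27me2 and no H3K4me2, H3K4me3 touched 7.38% and H3K9me2 of batch 1 touched 29.5%, against 77.8% and 2.39% of the 9654 genes touched by both.

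The share with each mark is given next for other gene types. Of 1082 pseudogenes, 19.0% had H3K27me2 and 31.5% had H3K4me2 over at least 50% of the body. Of 1051 long non-coding RNA genes, 4.00% had H3K27me2 and 10.1% had H3K4me2. None of the 474 tRNA genes touched H3K27me2, and 5 touched H3K4me2. Of the 295 small nucleolar RNA genes, whose products guide modification of other RNAs, 2.71% had H3K27me2 and 37.3% had H3K4me2.

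Within genes of at least 2 kb with a single H3K4me3 interval near 1 end, H3K27me2 was highest at that end. Shorter genes and genes without H3K4me3 were not part of this profile. As the annotation used gives no strand, genes of at least 2 kb with a single H3K4me3 interval (batch 1) whose summit lay in the outer 33.3% at either end of the gene were turned so that this end came first. Of 12505 such genes, 3250 had H3K27me2 on the body. In these, H3K27me2 covered 39.1% of the first of 10 body bins, 11.1% of the fifth and 13.4% of the last, and H3K4me2 covered 74.5%, 19.2% and 16.0%. H3K27me2 had a second, lower rise near the far end, with 15.7% in bin 9, where H3K4me3 covered 1.64%.

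The 9255 genes without H3K27me2 on the body had less H3K4me2 in the first body bin and more H3K4me3. H3K4me2 covered 74.5% of the first bin in genes with H3K27me2 and 52.8% in genes without, and H3K4me3 covered 67.7% with and 88.6% without. In body bin 2 the classes were alike in H3K4me2, at 59.5% with and 59.1% without H3K27me2. In the 500 bp before that end, H3K4me2 covered 16.1% with and 6.20% without H3K27me2. Further out it was lower with H3K27me2, at 5.77% with and 7.60% without in the next 500 bp. In body bin 9 H3K4me2 covered 20.1% with and 4.81% without. Turning genes by H3K4me3 chooses genes that carry it at an end, so the high H3K4me3 cover there describes the choice in both classes. What sets the H3K4me3 difference between the classes was not tested. The classes were divided by H3K27me2, of whose bp 63.2% lay inside H3K4me2. Higher H3K4me2 cover with H3K27me2 thus follows in part from the division.

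**Figure D5:**
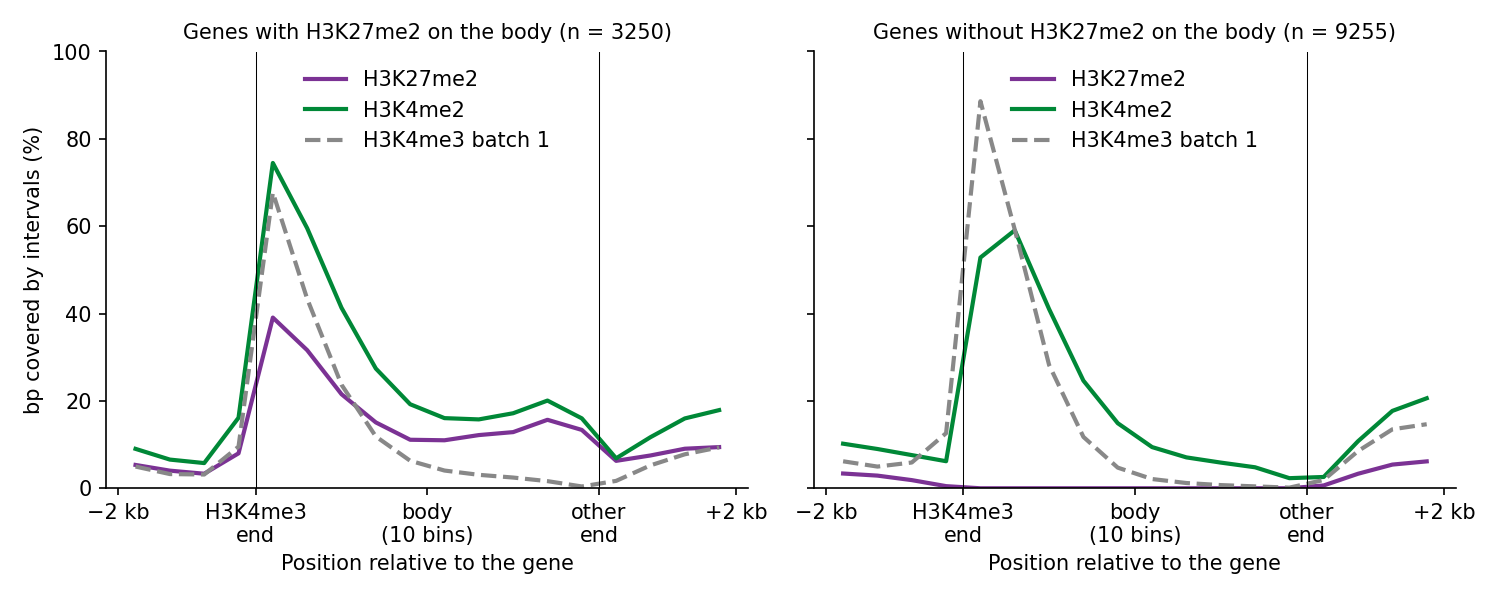
Percent of bp covered by H3K27me2, H3K4me2 and H3K4me3 batch 1 in 10 bins of the gene body and in 500 bp bins over 2 kb on either side, for 3250 genes with and 9255 genes without H3K27me2 on the body, turned so that the H3K4me3-marked end is left; H3K27me2 is 0 on the body at right by the choice of genes. H3K27me2 reaches 39.1% in the first body bin and keeps close to H3K4me2 at the far end.

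Single intervals are named next as examples of the classes within which they were chosen. The H3K27me2 interval of highest −log10 q among those at least 90% inside H3K4me2 lay on chromosome 8 from 1655602 to 1656279, in the 4345 bp protein-coding gene LOC102713931. It had a pileup of 150 reads, a fold enrichment of 13.0 and a −log10 q of 108, with 93.8% of it in H3K4me2 and 74.8% in H3K4me3 of batch 1. The next lay on chromosome 9 from 10994628 to 10995674 in LOC102715786, with a −log10 q of 100.1 and 96.9% in H3K4me2. H3K4me3 covered none of that interval in batch 1 and 54.1% in batch 2. The third lay on chromosome 7 from 12255662 to 12257377 and spanned most of the 2044 bp gene LOC102714205, of whose body H3K27me2 covered 83.6% and H3K4me2 83.8%.

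The 3 H3K27me2 intervals of highest −log10 q with no H3K4me2 were fully inside H3K9me2 in both batches and overlapped no annotated gene. They lay on chromosome 3 from 590 to 733, on chromosome 8 from 18299322 to 18299859 and on chromosome 9 from 15504636 to 15505323. Their pileups were high, at 515, 282 and 289 reads, and their fold enrichments low, at 2.58, 3.22 and 3.15. All 3 lie at chromosome ends, on chromosome 3 at the start and on chromosomes 8 and 9 at the end, where lengths by the last interval are 18.3 and 15.5 Mb. Whether reads that map to several places contribute to these intervals was not tested.

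The widest intervals, chosen by width alone, split between the classes. The H3K27me2 interval of 6611 bp on chromosome 4 from 7395317 to 7401927 had no H3K4me2 and lay 79.4% in H3K9me2 of batch 1. The next, of 6159 bp on chromosome 7 from 1495352 to 1501510, lay 89.5% in it, again with no H3K4me2. The third, of 5730 bp on chromosome 4 from 12530133 to 12535862, had 61.3% in H3K4me2 and no H3K9me2. It lay over LOC102718921, a protein-coding gene of 6865 bp whose body was 90.7% covered by H3K27me2 and 51.1% by H3K4me2.

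For H3K4me2 the widest interval, 7149 bp on chromosome 2 from 21646117 to 21653265, covered the whole body of LOC102704031 and had no H3K27me2. The second, of 6139 bp, covered 98.0% of LOC102714681 on chromosome 10, where H3K27me2 covered 25.6% of the body. The third, of 5681 bp on chromosome 1, reached over LOC102718039 and LOC102718962, of which H3K27me2 covered 54.3% and 6.58%.

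The H3K4me2 interval of highest −log10 q with no H3K27me2 lay on chromosome 8 from 16997838 to 16998691, over the whole of the 687 bp gene LOC121055214, with a −log10 q of 109.6 and 77.4% in H3K4me3 of batch 1. The next lay on chromosome 5 in LOC121054546, with a −log10 q of 95.5. The third, on chromosome 3, lay in LOC102720783, which carried H3K27me2 on 18.4% of its body beside the interval. H3K9Ac covered none of the first 2 intervals and 9.01% of the third.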

How the data were processed

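ChIP-seq libraries of O. brachyantha at tillering were read as 90 bp pairs, per the labels' protocols. The authors used Bowtie, MACS2 and bedtools, per the submitters' processing notes, and deposited 1 interval list per library. Versions, the calling threshold and the handling of reads that map to several places are not given in the sources used here. The deposited lists give each interval, its summit, a pileup signal, and the authors' joined −log10 p, fold and −log10 q. Positions are on assembly RS2, as named in the deposited lists, and genes are from the RefSeq table of ObraRS2; gene ends passed the last peak on 2 chromosomes, by at most 45 bp.

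The 8 lists were read with Python 3.11.15, numpy 2.4.6, pandas 2.3.3 and scipy 1.17.1 on chromosomes 1 to 12, whose length was taken as the last interval end. Touching means at least 1 bp. Windows were 100 kb. The interval arithmetic was tested on simulated lists. Members, gene classes and the turning of genes by H3K4me3 were chosen with earlier results of these data known. Named intervals are the 3 widest of each list and the 3 of highest −log10 q in each class; the genes are those they overlap. Alternatives changed the intervals used, the overlap asked for, the joining of neighbours, window size, batch and gene threshold. Planned gene lists by product name and a motif search were not run, because the tables used hold no product names and no sequence.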

Additional observations from a re-analysis of the deposited data

How the results depend on the processing

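Of 39 alternatives to 16 values, 22 stayed within the spread of the value (its 95% Wilson interval, 1 SD over chromosomes, or 1.5 times for counts of genes), 17 moved beyond it and 0 changed direction. Shares, gene counts and ratios of the highest to the lowest bin cannot change direction, so the 0 carries no weight for them. With the 50% of intervals of highest −log10 q, the share of intervals touching the other mark was 67.0% for H3K27me2 and 49.4% for H3K4me2, the share of bp inside the other mark was 74.4% and 37.2%, the ratio of median widths was 0.551 and the correlation over windows was 0.54. With equal numbers of strongest intervals the touching shares were 63.9% for H3K27me2 and 57.9% for H3K4me2. Asking for 50% of the interval to be covered gave 47.85% and 24.8%, and 50% reciprocal overlap gave 26.9% and 21.8% and an inward shift of 44 bp. Asking for 20% of the gene body gave 6496 H3K27me2 and 16288 H3K4me2 genes, and asking for 80% gave 1516 and 4093; the threshold itself sets these counts. H3K27me2 had the higher touching share of the marks in each setting given here. The alternatives for density with the strongest intervals were chosen after seeing the data.

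No value without a library can be given, as each mark has 1. No paired analysis was possible because each mark has 1 library and the values come from no test. Read depth, which sets how many weak intervals a list holds, is unknown.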

Other observations

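The protein-coding genes with most H3K27me2 bp were long, unlike the short genes that met the threshold on the share of the body, and the 3 first had H3K9me2 over more than 50% of the body. The first, LOC121055134 on chromosome 8, is 14863 bp long and had 10267 bp of H3K27me2, or 69.1% of its body, against 3.09% H3K4me2, with 60.6% H3K9me2 in batch 1. The next, LOC102720552 on chromosome 10 (35588 bp), had 10018 bp of H3K27me2, 28.2% of its body, with 2.82% H3K4me2 and 51.4% H3K9me2. LOC102708261 on chromosome 7 had 36.4% H3K27me2, 6.21% H3K4me2 and 55.9% H3K9me2. These genes were chosen after their values were seen.

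A few short genes carried H3K27me2 over most of the body with none of the other marks in any of the lists used. LOC102716750 on chromosome 12, of 327 bp, was fully covered by H3K27me2, LOC102708000 on chromosome 10, of 582 bp, was 97.6% covered, and LOC102720276 on chromosome 11, of 1425 bp, was 97.4% covered, each at 0% for H3K4me2, H3K4me3, H3K9Ac, H3K56Ac and H3K9me2. They too were chosen after their values were seen.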
